A study of Mus musculus with 8 samples.

Results

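A set of 36 genes was examined in embryonic mouse hearts, from wild-type embryos and from embryos labelled as Atf4 frameshift mutants. The genes carry glucose to lactate and to the entry of pyruvate into mitochondria. They were taken by symbol from a list of 36 genes that covers glucose import, the steps of glycolysis, lactate production and export, the mitochondrial pyruvate carrier, pyruvate dehydrogenase and its kinases. All 36 were found among the 52778 listed features, and all 36 reached 1 TPM in at least 4 of the 8 libraries, so all were among the 15545 genes tested. RNA came from ventricular heart tissue dissected at embryonic day 11.5. The 4 mutant libraries are labelled as coming from embryos homozygous for Atf4(del7/del7), a global knockout. In this allele CRISPR/Cas9 removed 7 bases from exon 3 and so shifted the reading frame. A genotype field in the labels lists these mutant libraries as wild type, so groups were taken from titles. The 4 control libraries came from wild-type embryos. The labels give the strain of both groups as C57BL/6, give no other allele or treatment, and describe the libraries of a genotype as biological replicates without saying whether hearts were pooled. Levels are TPM, a relative transcript abundance, which are corrected for the length of each transcript and can be set side by side for different genes, but keep no read depth.

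Glycolysis splits glucose into pyruvate in the cytosol, and pyruvate is then either reduced to lactate and exported or carried into mitochondria and oxidized. Most steps can be catalysed by several isoenzymes from different genes, which differ in kinetics, regulation and tissue. The heart of the early embryo is known to depend largely on glycolysis, and the switch to fatty acid oxidation comes later, around birth.

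Atf4 itself was higher in mutants, at 148 to 185 TPM against 105 to 121 TPM in controls (log2 fold change 0.57, standard error 0.071, limma adjusted p = 0.0430). The genotype is therefore taken from the titles and not from the transcript level. The call of Atf4 was lost in 13 of 19 alternative fits, among them 7 of the 8 with a library left out. Over the 19, log2 fold changes were 0.51 to 0.62 and limma adjusted p-values 0.030 to 0.354. All 8 ventricular cardiomyocyte markers and all 10 erythroid markers reached 1 TPM, as did 4 of 5 atrial markers (not Sln) and 3 of 6 macrophage markers. Of 8 neuronal markers 2 reached 1 TPM, and Neurod1, Neurod6, Tbr1, Snap25, Elavl3 and Syt1 did not, although one protocol in the labels mentions cultured cortical neurons. All 5 hepatocyte markers were below 1 TPM, as were Myod1, Myog, Myf5, Pax7 and Mymk of the 6 skeletal muscle markers. Summed erythroid markers ran from 4688 to 7993 TPM in controls and from 4378 to 6094 TPM in mutants, and summed macrophage markers from 7.38 to 16 TPM and from 4.25 to 8.10 TPM. The part of these cell types in the differences below was not tested, except where a fit with haemoglobin as a covariate is given. In bulk tissue, fewer cells of a type and less RNA per cell cannot be told apart.

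Glycolysis was strongly expressed in both genotypes, and no gene of the route was called different between them. None of the 36 genes passed an adjusted p of 0.05 in limma, where 0.0386% of all genes tested did (0.00643% higher and 0.0322% lower in mutants), and the smallest adjusted p was 0.759, for Hk2. At an unadjusted limma p below 0.05 there were 4 genes, all higher in mutants, namely Hk2, Slc2a3, Slc16a3 and Slc2a1, against 2.65% of all genes tested in that direction and 6.1% in either. None was lower at that level, against 3.45% of all genes. The log2 fold change was above 0 for 28 and below 0 for 8 of the genes, against 48.2% above 0 among all genes tested, and its median was 0.037 against -0.0033. With haemoglobin level as a covariate 23 were above 0. In 1 of the 36, Hk2, no mutant library overlapped the control libraries, where 1.63% of all genes tested were separated in that direction, 2.05% in the other and 3.68% in either, and after rescaling to exclude haemoglobin and mitochondrially encoded genes that count was 0.

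The 95% limma interval lay within 0.2 on the log2 scale to either side of 0 for 20 of the 36 genes, and for 17 of the 22 genes with at least 100 TPM in controls. The narrowest interval reached 0.061 to either side of its estimate and the widest, that of Mpc1, reached 1.01. The median coefficient of variation among libraries was 4.78% in controls and 5.35% in mutants. Summed over the 36 genes, the controls held 14965, 14026, 14070 and 14584 TPM and the mutants 15345, 14755, 15124 and 14403 TPM, so the groups overlapped. These sums count each gene's own feature only. They leave out the near-identical copies described below, which for Gapdh held 7361 TPM in controls and 7297 TPM in mutants.

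**Figure D1:**
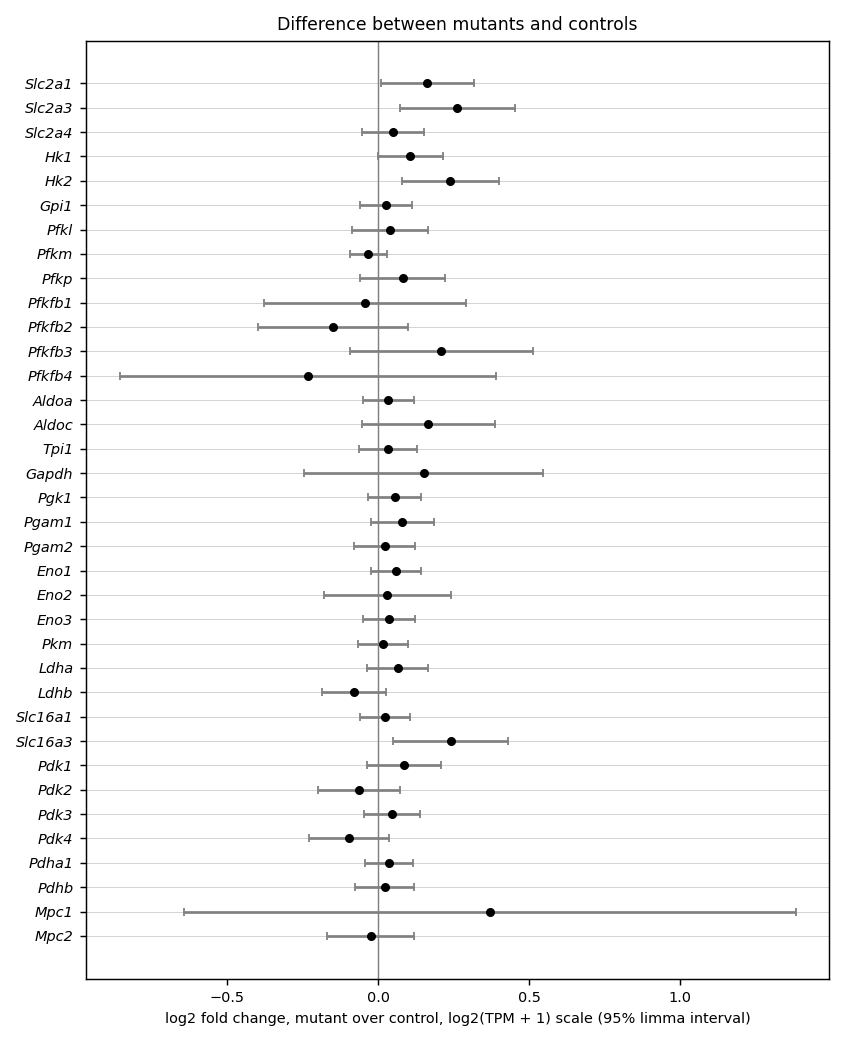
Log2 fold change of each gene, mutants over controls, on the log2(TPM + 1) scale, with the 95% limma interval. The points lie between -0.23 (Pfkfb4) and 0.37 (Mpc1), most of the abundant enzymes sit close to 0 with short bars, and none passes an adjusted p of 0.05.

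Glucose enters the cell through facilitative transporters. Slc2a1, which encodes the widely used transporter GLUT1, was the main one in this tissue, with 464, 457, 407 and 520 TPM in the control libraries and 517, 551, 500 and 493 TPM in mutants. Its mean was 462 ± 46.2 TPM (SD, n = 4) in controls and 515 ± 26.2 TPM (SD, n = 4) in mutants, a log2 fold change of 0.16 (95% interval 0.0078 to 0.32, limma adjusted p = 0.809). The highest control library lay above 3 of the 4 mutant libraries, so the groups overlapped. With haemoglobin level as a covariate the log2 fold change of Slc2a1 was 0.15, and its unadjusted p was no longer below 0.05.

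Slc2a3 encodes GLUT3, a high-affinity transporter known from neurons and from early embryos. Its libraries held 31.7, 33.1, 28.4 and 35.1 TPM in controls and 36.1, 42.3, 42.2 and 34.2 TPM in mutants. The log2 fold change of Slc2a3 was 0.26 (95% interval 0.071 to 0.45, limma adjusted p = 0.780), and the lowest mutant library fell 0.906 TPM below the highest control. Slc2a4, which encodes the insulin-responsive GLUT4 of adult heart and muscle, was at 18.6 to 20.1 TPM in controls and 19.3 to 20.5 TPM in mutants. In TPM, the order Slc2a1, Slc2a3, Slc2a4 held in all 8 libraries without overlap. Slc2a1 accounted for 89.9% of the summed TPM of the 3 transporters in controls and 89.8% in mutants, Slc2a3 for 6.25% and 6.74%, and Slc2a4 for 3.80% and 3.51%.

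Hexokinase traps glucose as glucose 6-phosphate. Hk1, the widely expressed form, was the more abundant, at 255, 265, 235 and 274 TPM in controls and 282, 276, 282 and 267 TPM in mutants. The log2 fold change of Hk1 was 0.11 (95% interval -0.0017 to 0.21, limma adjusted p = 0.821). Hk2, known as the insulin- and hypoxia-responsive form of muscle and heart, was at 51.6, 52.3, 45.6 and 58.8 TPM in controls and at 59.8, 60.2, 66.2 and 59.8 TPM in mutants. All 4 mutant libraries were above all 4 control libraries, by a gap of 0.957 TPM between the nearest values. The mean of Hk2 was 52.1 ± 5.40 TPM (SD, n = 4) in controls and 61.5 ± 3.16 TPM (SD, n = 4) in mutants, a log2 fold change of 0.24 (95% interval 0.080 to 0.40, limma adjusted p = 0.759). With haemoglobin level as a covariate the log2 fold change of Hk2 was 0.28 at an adjusted limma p of 0.961. Hk1 made up 83.2% ± 0.616 (SD, n = 4) of the TPM of the pair in controls and 81.8% ± 0.640 in mutants. This difference of -1.38 percentage points had an exact two-sided permutation p of 0.0571, and 0.286 after Benjamini-Hochberg adjustment over the 10 steps with several isoenzymes.

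**Figure D2:**
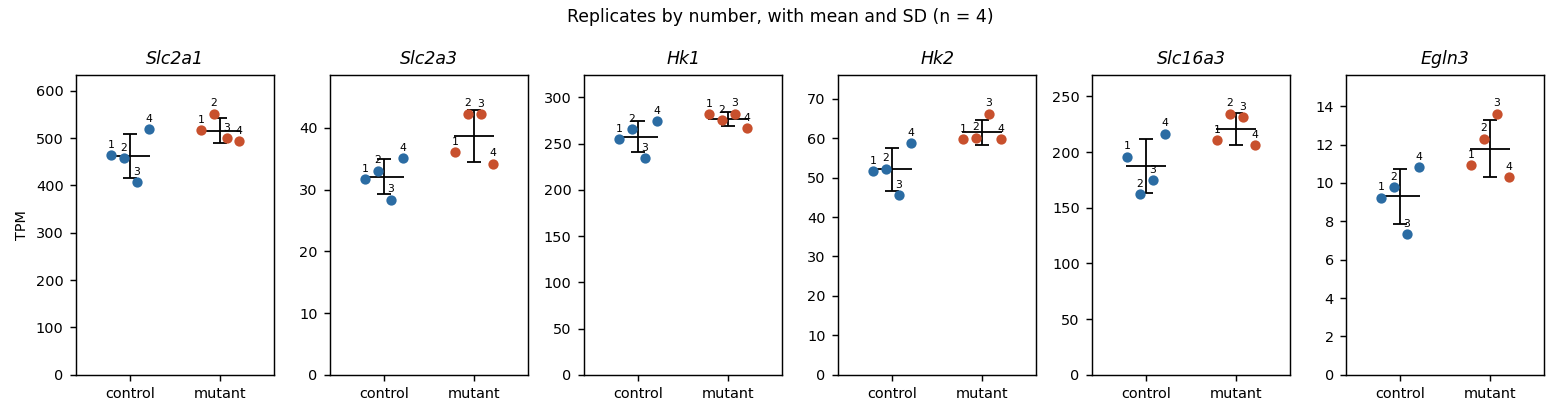
TPM of Slc2a1, Slc2a3, Hk1, Hk2, Slc16a3 and the regulator Egln3 in each library, marked by replicate number, with the mean and SD of the 4 libraries of each genotype. Hk2 is separated by 0.957 TPM and the groups of the other genes overlap, with control replicate 4 the highest control in each.

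Glucose phosphate isomerase is encoded by 1 gene, Gpi1, with 665, 629, 625 and 635.5 TPM in controls and 691, 640, 632 and 638 TPM in mutants. Mutant replicate 1 was the highest library and the others overlapped (log2 fold change 0.026, limma adjusted p = 0.955). Without mutant replicate 1 the log2 fold change of Gpi1 was -0.0039.

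Phosphofructokinase 1 commits fructose 6-phosphate to glycolysis, and its tetramers can mix a liver, a muscle and a platelet type subunit. The embryonic ventricle held all 3, with no subunit holding a majority of the summed TPM. The liver type Pfkl was the most abundant at 164 to 183 TPM in controls, the platelet type Pfkp followed at 111 to 127 TPM, and the muscle type Pfkm, the predominant form of adult heart, was the lowest at 101 to 103 TPM. These ranges did not overlap in controls. The mutants held 162 to 190 TPM of Pfkl, 116 to 138 TPM of Pfkp and 98.96 to 102 TPM of Pfkm. The shares were 43.9% and 44.0% for Pfkl, 30.2% and 31.2% for Pfkp, and 25.9% and 24.7% for Pfkm, in controls and mutants respectively. The log2 fold changes were 0.038 for Pfkl, 0.082 for Pfkp and -0.033 for Pfkm, the last with a 95% interval of only -0.094 to 0.029. Pitrm1, at 71.3 TPM, overlaps Pfkp on the other strand and Senp1, at 18.6 TPM, overlaps Pfkm, and how reads of overlapping features were assigned is not given in the sources used here.

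The bifunctional PFKFB enzymes make and remove fructose 2,6-bisphosphate, the activator of phosphofructokinase 1, and were far less abundant than the enzymes they regulate. Pfkfb3, the form with a strong bias toward synthesis, was at 12.1, 12.5, 9.84 and 12.8 TPM in controls and 14.4, 11.2, 17.9 and 12.4 TPM in mutants (log2 fold change 0.21, 95% interval -0.094 to 0.51). Mutant replicate 3 was the highest and mutant replicate 2 lay below 3 controls, and without mutant replicate 3 the log2 fold change of Pfkfb3 was 0.091. Pfkfb2, the heart form, was at 8.47, 11.9, 8.66 and 8.18 TPM in controls and 7.64 to 8.92 TPM in mutants (log2 fold change -0.15, and -0.037 without control replicate 2). Pfkfb1, the liver and muscle form, was at 4.01 to 5.70 TPM in controls and 3.13 to 5.33 TPM in mutants. Pfkfb4, known from testis and from hypoxic cells, ran from 0.733 to 2.10 TPM and from 0.690 to 2.74 TPM, which is near the filter.

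Pfkfb3 was above Pfkfb2 in all 8 libraries, by a factor of 1.05 to 2.34, although their control ranges overlapped, and Pfkfb1 and Pfkfb4 were each below both. Pfkfb3 made up 43.3% ± 2.34 (SD, n = 4) of the summed PFKFB TPM in controls and 49.7% ± 4.56 in mutants, a difference of 6.44 percentage points (exact two-sided permutation p = 0.0571, adjusted p = 0.286). Pfkfb2 made up 34.0% and 29.9%, Pfkfb1 16.8% and 15.8%, and Pfkfb4 the remainder.

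Aldolase, which cleaves fructose 1,6-bisphosphate into 2 triose phosphates, came almost entirely from Aldoa, the muscle and general form. Aldoa was the most abundant of the 36 genes by its own feature and ranked 33 among all genes tested. Its libraries held 2291, 2145, 2192 and 2176 TPM in controls and 2342, 2247, 2267 and 2158 TPM in mutants (log2 fold change 0.034, 95% interval -0.052 to 0.12). Aldoc, the brain form, was at 6.21 to 7.17 TPM in controls and 6.35 to 8.76 TPM in mutants. Aldoa thus held 99.7% of the summed TPM of the pair in both genotypes. Tpi1, which interconverts the triose phosphates, was at 1178 to 1263 TPM in controls and 1178 to 1332 TPM in mutants (log2 fold change 0.032).

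Gapdh, the enzyme that oxidizes glyceraldehyde 3-phosphate, was listed at only 140, 138, 142 and 132 TPM in controls and at 238, 147, 129 and 123 TPM in mutants. That places it at rank 897 of the genes tested, far below the enzymes just before and after it in the pathway. Near-identical copies of Gapdh, which are mostly processed pseudogenes, were listed as features of their own. There were 85 of them with at least 95% identity over at least 200 aligned bases, 26 with at least 99%, on 20 chromosomes, and 53 reached 1 TPM. Together the copies held 7361 TPM in controls and 7297 TPM in mutants, 98.2% and 97.9% of the sum of the gene and its copies. The highest were Gm7336 on chromosome 7 (758 TPM in controls), Gm5559 on chromosome 5 (686 TPM) and Gm13394 on chromosome 2 (639 TPM), each well above Gapdh itself.

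The sequences below show how little separates these features. Over the 1002 coding bases of Gapdh, Gm7336 had 0 differences and Gm5559 had 1. Over the 1000 bases it shares, Gm13394 had 1. Bases 329 to 403, counted from the first base of the start codon and read from GRCm38, are given 5′ to 3′ on the coding strand, with a base that differs from the gene in capitals.
Gapdh: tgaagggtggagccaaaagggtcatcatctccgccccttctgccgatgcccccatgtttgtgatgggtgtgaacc
Gm7336: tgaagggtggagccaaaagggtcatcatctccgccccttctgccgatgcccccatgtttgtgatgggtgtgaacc
Gm5559: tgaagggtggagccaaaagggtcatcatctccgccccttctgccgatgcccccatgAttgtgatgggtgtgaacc
Gm13394: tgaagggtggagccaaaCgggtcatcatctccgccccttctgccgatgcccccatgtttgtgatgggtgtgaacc
A read from this stretch of Gapdh matches Gm7336 equally well. How reads with several matches were counted is not given in the sources used here, so the level of Gapdh alone cannot be told apart from that of its copies.

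Summed with its copies, Gapdh stood at 7499 ± 222 TPM (SD, n = 4) in controls and 7457 ± 233 TPM in mutants, which is above Aldoa. The log2 fold change of the sum was -0.0082 (limma adjusted p = 0.993), whereas that of the gene's own feature was 0.15 (95% interval -0.25 to 0.55). The latter rested on mutant replicate 1, and without it the log2 fold change of Gapdh was -0.060. The coefficient of variation of the single Gapdh feature was 33.8% among the mutant libraries and 2.99% among the controls.

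**Figure D3:**
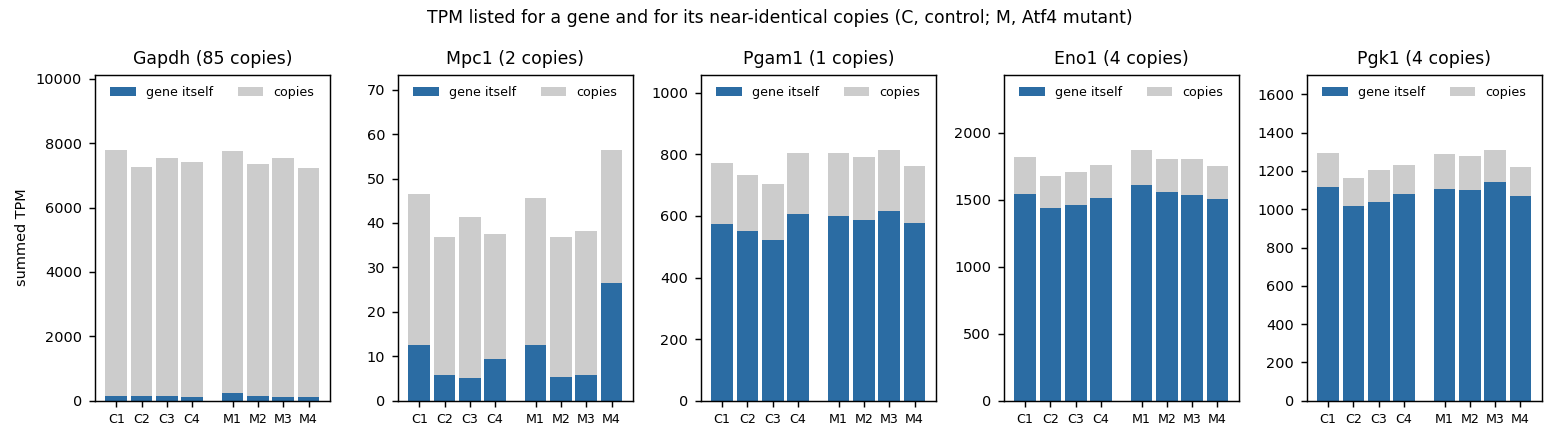
TPM in each library, stacked as the gene's own feature and the sum of its copies, for Gapdh, Mpc1, Pgam1, Eno1 and Pgk1, with C for control and M for Atf4 mutant libraries. For Gapdh nearly the whole bar belongs to the 85 copies, and the bar height is alike in all 8 libraries although the gene's own part varies from 123 to 238 TPM.

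The lower part of glycolysis is where ATP is made. Phosphoglycerate kinase, from Pgk1 on the X chromosome, was at 1118, 1017, 1040 and 1079 TPM in controls and 1108, 1098, 1142 and 1068 TPM in mutants (log2 fold change 0.054, 95% interval -0.032 to 0.14). Its 4 copies held 13.1% of the sum of gene and copies in controls, and of these Pgk1-rs7 (81.5 TPM) and Gm5537 (76.5 TPM) had 0 differences over 1253 and 1252 compared coding bases.

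Phosphoglycerate mutase came from both of its genes in comparable amounts. The general form Pgam1 was at 573, 551, 523 and 606 TPM in controls and 599, 587, 615 and 576 TPM in mutants (log2 fold change 0.079). The muscle form Pgam2 was at 405 to 436 TPM in controls and 403 to 459 TPM in mutants (log2 fold change 0.021). Pgam1 was above Pgam2 in all 8 libraries, by a factor of 1.21 to 1.498. Its share was 57.1% in controls and 58.1% in mutants, or 64.0% and 64.9% when the identical copy Pgam1-ps2 (190 TPM in controls) was counted with it.

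Enolase came mainly from the general form Eno1, at 1542, 1435, 1463 and 1509 TPM in controls and 1606, 1558, 1532 and 1501 TPM in mutants (log2 fold change 0.059, 95% interval -0.023 to 0.14). The muscle form Eno3 was at 221 to 242 TPM in controls and 231 to 250 TPM in mutants. The neuronal form Eno2 was at 4.599 to 5.93 TPM and 5.02 to 6.35 TPM, respectively. Eno1 held 86.2% of the summed enolase TPM in controls and 86.4% in mutants, and Eno3 held 13.4% and 13.3%. Eno3 overlaps Pfn1, which lies on the other strand and is listed at 1000 TPM. The 4 copies of Eno1 held 14.4% of the sum of gene and copies in controls.

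Pyruvate kinase came from Pkm, at 1638, 1534, 1516 and 1554 TPM in controls and 1627, 1561, 1602 and 1522 TPM in mutants (log2 fold change 0.016, 95% interval -0.068 to 0.10). Pkm is listed as 1 feature, so its alternatively spliced forms PKM1 and PKM2, of adult muscle and of growing tissue, cannot be told apart in these data. Pklr, the form of liver and red cells, was near the filter of 1 TPM at 1.35 ± 0.492 TPM (SD, n = 4) in controls and 2.44 ± 0.303 TPM in mutants. No mutant library of Pklr overlapped the controls, where 1.63% of all genes tested were separated in that direction. Its log2 fold change was 0.57 (95% interval 0.22 to 0.92, limma adjusted p = 0.720). Pklr is named because its unadjusted limma p was the smallest of the 11 further paralogs tested.

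**Figure D4:**
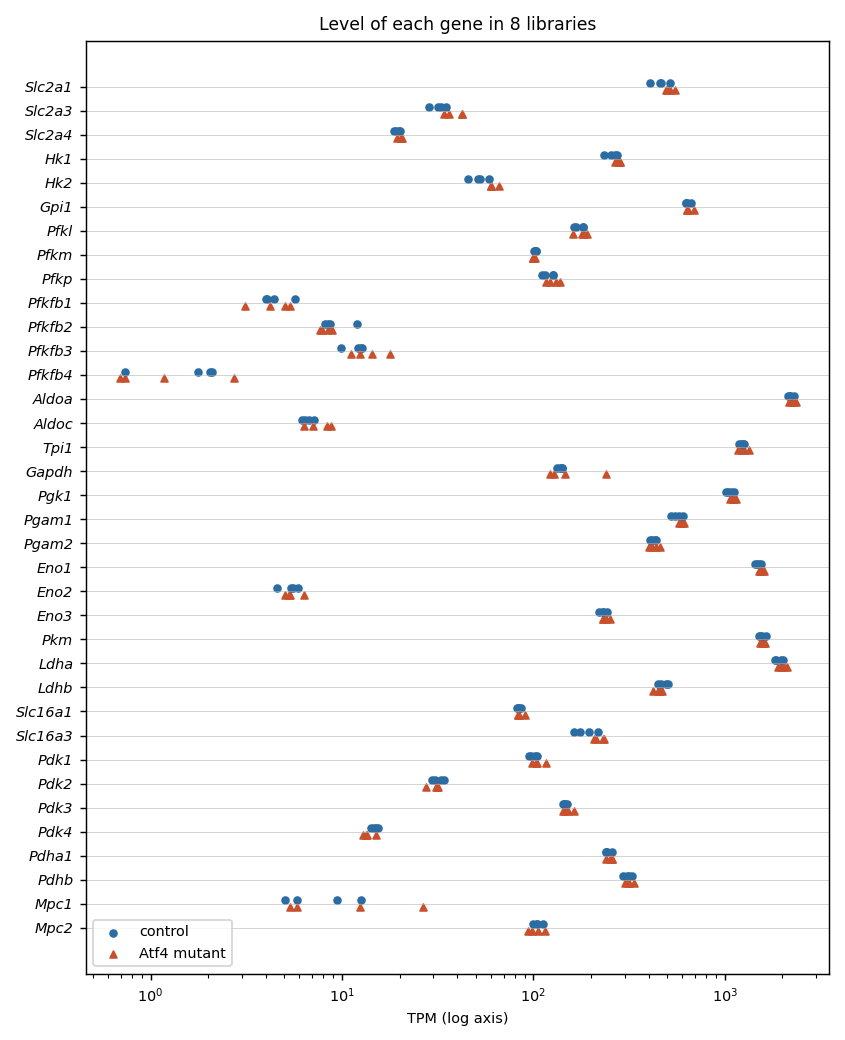
TPM of each of the 36 genes in the 8 libraries, on a log axis, in pathway order. The 6 genes above 1000 TPM in controls are Aldoa, Tpi1, Pgk1, Eno1, Pkm and Ldha, Pfkfb4 lies lowest, and the points of both genotypes fall together for nearly every gene.

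Lactate dehydrogenase interconverts pyruvate and lactate, and its subunits are LDHA, the muscle type, and LDHB, the type that prevails in adult heart. Ldha was the more abundant, at 2007, 1852, 1836 and 1964 TPM in controls and 2030, 1973, 2101 and 1904 TPM in mutants (log2 fold change 0.064, 95% interval -0.036 to 0.16). Ldhb was at 493, 462, 502 and 450 TPM in controls and 471, 423, 449 and 460 TPM in mutants (log2 fold change -0.080, 95% interval -0.18 to 0.024). Both pairs of ranges overlapped. The ratio of Ldha to Ldhb ran from 3.66 to 4.68 over the 8 libraries. The Ldha share was 80.1% ± 1.17 (SD, n = 4) in controls and 81.6% ± 0.901 in mutants, a difference of 1.56 percentage points (exact two-sided permutation p = 0.0857, adjusted p = 0.286).

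Lactate leaves the cell through monocarboxylate transporters. Slc16a3, which encodes MCT4, the exporter of highly glycolytic cells, was at 196, 162, 175 and 217 TPM in controls and 211, 235, 231 and 206 TPM in mutants. Its mean was 188 ± 23.9 TPM (SD, n = 4) in controls and 221 ± 14.2 TPM in mutants, a log2 fold change of 0.24 (95% interval 0.051 to 0.43, limma adjusted p = 0.783). Control replicate 4 lay above 2 of the mutant libraries, so the groups overlapped. Slc16a1, which encodes MCT1, was at 82.0 to 86.0 TPM in controls and 82.9 to 90.3 TPM in mutants (log2 fold change 0.022, 95% interval -0.060 to 0.10). Slc16a3 held 68.9% ± 2.29 of the TPM of the pair in controls and 72.1% ± 1.74 in mutants (SD, n = 4, exact two-sided permutation p = 0.114, adjusted p = 0.286). Csnk1d, at 76.4 TPM, overlaps Slc16a3 on the other strand.

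The 4 genes at an unadjusted p below 0.05 are a transporter for import, a hexokinase, a second importer and a lactate exporter, and their control libraries followed a similar order. In Slc2a1, Slc2a3 and Hk2, control replicate 3 was the lowest control library and control replicate 4 the highest, and in Slc16a3 control replicate 4 was also the highest. Over all 36 genes control replicate 3 was the lowest control in 19. Without control replicate 3 the log2 fold changes were 0.10 for Slc2a1 and 0.18 for Hk2, and without control replicate 4 they were 0.22 and 0.30. With each library left out in turn, the unadjusted limma p of Hk2 ran from 0.00097 to 0.024 and that of Slc2a3 from 0.0045 to 0.038. That of Slc2a1 ran from 0.0046 to 0.111 and that of Slc16a3 from 0.0020 to 0.0514, so these 2 did not stay below 0.05. No adjusted p of these genes fell below 0.444 in any of these fits, and the number of the 36 genes at an unadjusted p below 0.05 ran from 2 without control replicate 3 to 6 without control replicate 4 or mutant replicate 4.

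Pyruvate enters mitochondria through a carrier built of the MPC1 and MPC2 subunits. Mpc2 was at 112, 104, 104 and 99.04 TPM in controls and 106, 93.6, 97.9 and 115 TPM in mutants (log2 fold change -0.025, 95% interval -0.17 to 0.12). Mpc1, which works with it as a heterodimer, was listed at 12.5, 5.83, 5.02 and 9.37 TPM in controls and 12.4, 5.35, 5.82 and 26.5 TPM in mutants. Its log2 fold change of 0.37 was the highest of the 36 genes and had the widest interval, -0.65 to 1.38. Without mutant replicate 4 the log2 fold change of Mpc1 was -0.061.

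Mpc1, like Gapdh, has a near-identical copy that was listed above the gene. Mpc1-ps on chromosome 12 was at 32.4 TPM in controls and 31.8 TPM in mutants and differs from Mpc1 at 1 of 330 coding bases. Bases 21 to 95 from the start codon contain that difference, in capitals.
Mpc1: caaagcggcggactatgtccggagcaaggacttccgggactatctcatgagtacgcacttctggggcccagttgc
Mpc1-ps: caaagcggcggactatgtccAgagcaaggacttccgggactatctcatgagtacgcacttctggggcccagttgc
The copies held 80.1% of the sum of gene and copies in controls and 74.0% in mutants. Summed with them, Mpc1 stood at 40.6 ± 4.44 TPM (SD, n = 4) in controls and 44.3 ± 8.96 TPM in mutants, a log2 fold change of 0.11 (limma adjusted p = 0.942). In all, 12 of the 36 genes had such copies, and the log2 fold change of Gapdh was the only one whose sign differed after summing.

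Pyruvate dehydrogenase turns pyruvate into acetyl-CoA. Pdha1, its X-linked alpha subunit, was at 240 to 256 TPM in controls and 239 to 258 TPM in mutants (log2 fold change 0.036, 95% interval -0.043 to 0.12). Pdhb, the beta subunit, was at 295 to 329 TPM in controls and 302 to 335 TPM in mutants (log2 fold change 0.021, 95% interval -0.078 to 0.12). Both groups overlapped throughout for both subunits.

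The enzyme is switched off by 4 pyruvate dehydrogenase kinases, which spare pyruvate for lactate. Pdk3 led in the embryonic ventricle, at 147, 145, 143 and 149 TPM in controls and 162, 143, 147 and 151 TPM in mutants. Pdk1, known as a hypoxia-responsive kinase, followed at 102, 96.8, 94.4 and 104 TPM in controls and 103, 105, 116 and 98.3 TPM in mutants (log2 fold change 0.085). Pdk2, the most widely expressed form, was at 29.7 to 34.0 TPM in controls and 27.4 to 31.7 TPM in mutants. Pdk4, the fasting- and fatty-acid-responsive kinase of adult heart, was the lowest at 14.1 to 15.3 TPM in controls and 12.95 to 15.1 TPM in mutants (log2 fold change -0.097, 95% interval -0.23 to 0.036). The order Pdk3, Pdk1, Pdk2, Pdk4 held in all 8 libraries. Pdk3 held 50.02% of the summed kinase TPM in controls and 50.2% in mutants, and Pdk1 held 34.0% and 35.1%.

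Across the 10 steps with several isoenzymes, the same isoenzyme led in both genotypes. The leading share differed by between -1.38 percentage points (Hk1) and 6.44 percentage points (Pfkfb3), and no share passed the exact permutation test after adjustment, where the smallest adjusted p was 0.286. With 4 against 4 libraries the smallest p this test can give is 0.0286, which adjusts to 0.286 for a single separated step among the 10, so no lone difference in share could have passed. The leading isoenzyme held on average over 80% of the TPM for glucose import, hexokinase, aldolase, enolase and lactate dehydrogenase, and the choice was spread over several genes for both phosphofructokinases, phosphoglycerate mutase and the pyruvate dehydrogenase kinases.

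**Figure D5:**
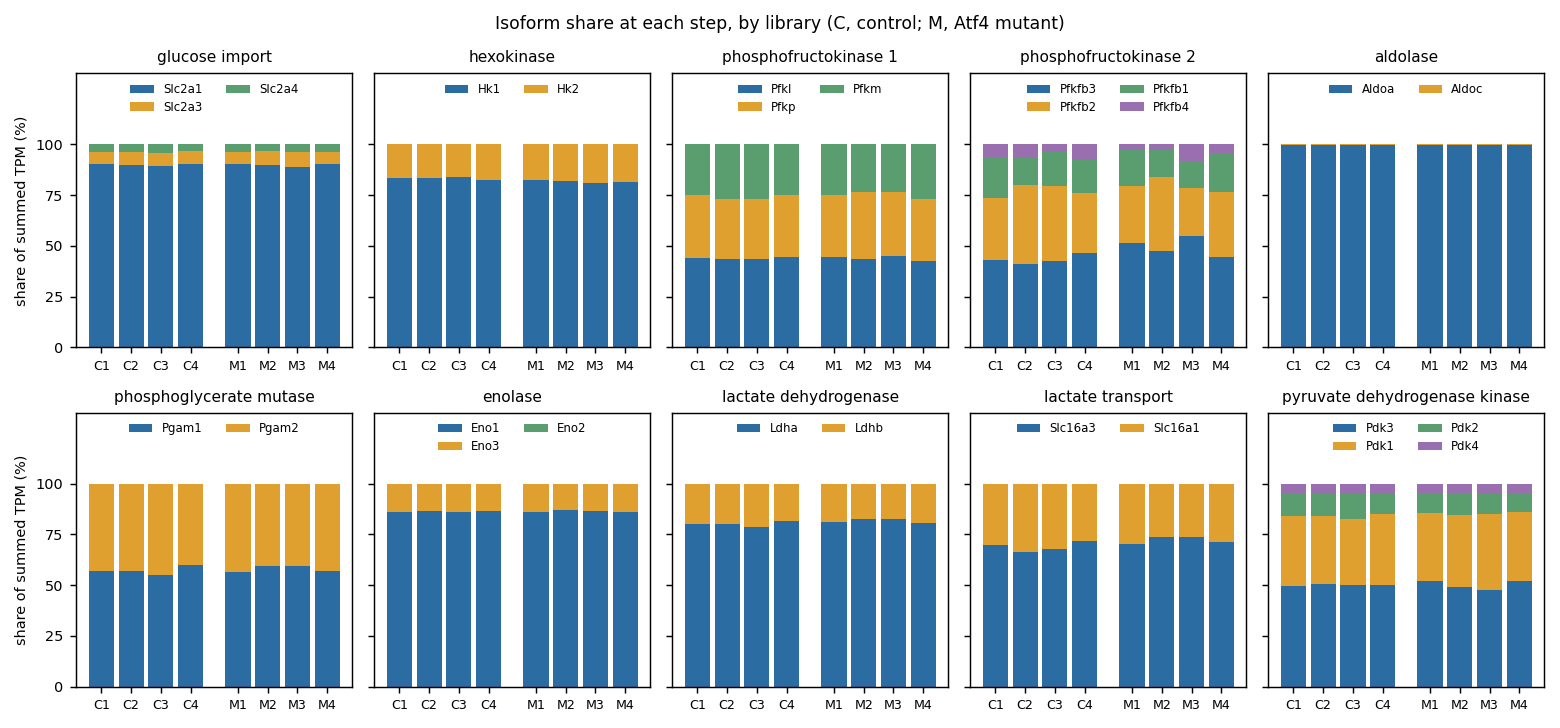
Share of summed TPM held by each isoenzyme at the 10 steps with several genes, as stacked bars for the 4 control (C) and 4 mutant (M) libraries. The bars of both genotypes look alike at each step, and the leading share differs most for Pfkfb3 (43.3% against 49.7%) and Slc16a3 (68.9% against 72.1%).

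Genes around the route were examined on lists of their own. Of 25 further paralogs 11 were tested and none passed an adjusted limma p of 0.05, with 6 log2 fold changes above 0 and a median of 0.023. Besides Pklr, the smallest unadjusted p belonged to Slc2a13, at 3.14 and 2.82 TPM in controls and mutants, and Slc2a12, at 3.22 and 3.85 TPM. None of the 8 further genes of the pyruvate dehydrogenase complex and of transporter partners passed, 7 were above 0, and the median was 0.045. Dlat and Dld, the E2 and E3 subunits, had log2 fold changes of 0.049 and 0.054, and Pdpr, a regulatory subunit of the phosphatase, 0.066. Bsg, the chaperone of MCT1 and MCT4, was at 733 TPM in controls and 744 TPM in mutants.

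The pentose phosphate pathway branches off at glucose 6-phosphate. None of its 7 genes passed, 6 were above 0 and the median was 0.029, with 0.035 for Tkt, 0.031 for G6pdx and 0.029 for Pgls. Of 20 genes of glycogen metabolism and other branches 19 were tested and none passed, with 13 above 0 and a median of 0.024. Gpd1l, a glycerol 3-phosphate dehydrogenase-like enzyme, was at 18.7 and 20.8 TPM (log2 fold change 0.14, limma adjusted p = 0.800). Pgm2, a phosphoglucomutase, was at 17.8 and 15.9 TPM (log2 fold change -0.15), and Ugp2, which makes UDP-glucose, at 155 and 163 TPM (log2 fold change 0.069).

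Among 14 regulators of the pathway none passed, 7 were above and 7 below 0, and the median was 0.0035. Txnip, an inhibitor of glucose uptake that is itself induced by glucose, was at 117, 117, 139 and 95.9 TPM in controls and 97.5, 95.9, 94.5 and 99.3 TPM in mutants (log2 fold change -0.26, limma adjusted p = 0.783). Control replicate 4 was within the mutant range and the other 3 controls were above it. Egln1 and Egln3, the prolyl hydroxylases that mark HIF-1α for degradation, had log2 fold changes of 0.21 and 0.32, both with a limma adjusted p of 0.800. Egln3 held 9.23, 9.78, 7.35 and 10.8 TPM in controls and 10.9, 12.3, 13.6 and 10.3 TPM in mutants, so 1 mutant library lay below the highest control. Hif1a, the hypoxia-inducible transcription factor, was at 196 and 195 TPM.

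Promoters of 34 of the 36 genes matched the RefSeq table for GRCm38.p6, which spans 250 bases before and 50 after each start. Each gene was read at 1 start only, the most upstream in that table. For some genes, among them Aldoa and Ldha, that start lies inside the gene's listed feature. The counts therefore describe that start and not every promoter of the gene. They were read for the HIF core motif in both its forms, ACGTG and GCGTG, on both strands, so that a CACGTG counts on each strand. At least 1 of the 2 forms was found in 26 of 34 (76.5%), against 43.8% of 27025 promoters in the table and 49.2% of those of protein-coding genes. ACGTG was found in 14 (41.2%, against 19.6% of all promoters and 20.7% of those of protein-coding genes). GCGTG was found in 20 (58.8%, against 32.5% and 38.5%). The motif TGATGNAA, the form bound by ATF4 with its partners, was found in 0 of 34, against 4.1% of all promoters and 3.7% of those of protein-coding genes. These are letter matches only and say nothing of binding. In the 200 bases upstream, Aldoa, Eno1, Pkm and Tpi1 held 0 matches to either form, although Eno1 held 2 in its whole promoter. Ldha held 5 and Pgk1 held 2 in these bases. Whether these counts go with transcript level was not tested. The 200 bases upstream are shown for Slc2a1, the main transporter, for Hk2, the only one of the 36 genes whose groups did not overlap, and for Pgk1. They are given 5′ to 3′ on the strand of the gene, with ACGTG or GCGTG on either strand in capitals.
Slc2a1, chr4:119108545-119108744, plus strand: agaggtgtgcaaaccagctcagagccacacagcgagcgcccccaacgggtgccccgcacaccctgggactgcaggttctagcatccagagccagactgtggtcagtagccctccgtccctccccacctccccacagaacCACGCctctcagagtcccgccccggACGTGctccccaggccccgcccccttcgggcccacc
Hk2, chr6:82774455-82774654, minus strand: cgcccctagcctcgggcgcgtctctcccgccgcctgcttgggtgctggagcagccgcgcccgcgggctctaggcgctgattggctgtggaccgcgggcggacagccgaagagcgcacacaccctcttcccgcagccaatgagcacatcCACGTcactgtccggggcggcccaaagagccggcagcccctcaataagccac
Pgk1, chrX:106186900-106187099, plus strand: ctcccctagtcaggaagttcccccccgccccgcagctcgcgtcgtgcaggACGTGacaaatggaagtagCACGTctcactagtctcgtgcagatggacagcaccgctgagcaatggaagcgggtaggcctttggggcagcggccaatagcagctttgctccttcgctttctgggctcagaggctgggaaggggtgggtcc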

How the data were processed

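RNA-seq of 8 libraries was analysed from the merged table of TPM that the authors deposited. Per the submitters' processing notes, FastQC, Trim Galore 0.6.7, HISAT2 2.2.1, StringTie 2.2.1, featureCounts and DESeq2 and the builds GRCm38 and mm10 were named, with no role given. Of 52778 features, 49593 matched a RefSeq GRCm38.p6 gene and 49590 had identical coordinates. TPM sums were 923473 to 949762 per library. The number of reads is unknown, so precision rests on the spread between libraries. The labels conflict on how RNA was extracted and whether poly(A) RNA was selected or ribosomal RNA depleted, and list a wild-type genotype for the mutants, so groups were taken from titles.

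Genes with at least 1 TPM in 4 libraries were compared as log2(TPM + 1) in limma 3.58.1 (R 4.3.3) with a variance trend and without covariates. Its two-sided p-values were Benjamini-Hochberg adjusted over all 15545 genes tested, with a threshold of 0.05. Fold changes on this scale understate those of low genes. Isoform shares were compared by exact two-sided permutation over 70 assignments. Copies were found with blastn 2.17.0 against GENCODE M21 transcripts (features up to 5000 bases). All 36 genes are described, and up to 3 genes per other list were named by smallest unadjusted p, while the remaining named genes and the printed sequences were chosen after their values were seen. The genes and lists were chosen with earlier results of these data known. Alternatives were other pseudocounts, filters, scalings, variance models, covariates, paralog sets, a replicate block, each library left out and, chosen after seeing the data, summing copies.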

Additional observations from a re-analysis of the deposited data

Results flagged for a closer look

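Each group of 4 libraries was examined for 1 library far from the rest, over 92 groups, and 5 were found where chance gives about 4.6. Hk2 was at 66.2 TPM in mutant replicate 3, with the other mutants between 59.8 and 60.2 TPM. Gpi1 was at 691 TPM in mutant replicate 1, with the others between 632 and 640 TPM. Pfkfb2 was at 11.9 TPM in control replicate 2, with the others between 8.18 and 8.66 TPM. Pdk2 was at 27.4 TPM in mutant replicate 4, with the others between 31.0 and 31.7 TPM. Pdha1 was at 256 TPM in control replicate 1, with the others between 240 and 242 TPM.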

How the results depend on the processing

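None of the 36 genes passed the threshold under any alternative run, and their smallest adjusted limma p was 0.444 (Hk2 without control replicate 4). Over all genes tested, the 6 calls (1 higher, 5 lower) became 0 with no filter on low values, with no variance trend and with the replicate number as a block, 1 with haemoglobin level as a covariate, and 0 to 3 with a library left out. The number of the 36 genes whose groups do not overlap, 1 in the main comparison, was 0 after rescaling without mitochondrially encoded and haemoglobin genes and 1 to 6 with a library left out (6 without control replicate 4, where 7.58% of all genes tested were separated, and 5 without mutant replicate 4, where 6.41% were). It was not recomputed for another pseudocount, no variance trend, library weights, the block or the covariate, which leave the order of TPM and the genes tested as they are. Their number at an unadjusted p below 0.05, 4, ran from 2 to 6 with a library left out, and their median log2 fold change from 0.026 to 0.057 (0.055 without control replicate 1, 0.057 without mutant replicate 4). The cause of these moves was not tested.

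Of 682 alternative log2 fold changes of single genes, 20 in 10 genes had the opposite sign, none of them called. With haemoglobin as a covariate these were -0.010 for Gpi1, -0.0041 for Pgam2, -0.047 for Eno2, -0.011 for Pkm and -0.0070 for Pdhb. Quantile normalization gave -0.012 for Pdhb, and summing copies -0.0082 for Gapdh. With each library left out in turn, the range spanned 0 for Gpi1 (-0.0039 to 0.045), Pfkfb1 (-0.12 to 0.081), Gapdh (-0.060 to 0.26), Pgam2 (-0.012 to 0.050), Eno2 (-0.030 to 0.072), Slc16a1 (-0.0062 to 0.034), Pdhb (-0.0078 to 0.047), Mpc1 (-0.061 to 0.64) and Mpc2 (-0.079 to 0.020). Share differences, in percentage points, spanned 0 in the same way for Slc2a1 (-0.334 to 0.107), Pfkl (-0.239 to 0.626) and Pdk3 (-0.504 to 1.12), and adding other paralogs gave 0.190 for Slc2a1.

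No pairing of the libraries by replicate number was seen, although low correlations cannot show that same-numbered libraries shared no litter or preparation day. Same-numbered libraries correlated at -0.082 to 0.035 after group means were removed, and 2 of 8 correlated best with their own number. With the block, 0 of the 36 genes were called, 4 were at an unadjusted p below 0.05 and 0 of 10 shares passed, where sign flips allow no p below 0.125.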
